A study of Homo sapiens with 21 samples.

Results

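The keratins described here were KRT7, KRT8, KRT18, KRT19, KRT80 and KRT81, chosen by gene symbol as 6 of the 55 keratin genes among the 60651 genes of the deposited raw counts. All 6 passed the filter on low counts in each comparison. The 21 sequenced xenograft tumors came from A549-Luc2 cells, a human lung adenocarcinoma line that carries luciferase, grown with Matrigel under the skin of female athymic nu/nu mice that were 6 to 8 weeks old at injection. The study asked how Oxy186 and Oxy210, 2 oxysterol derivatives, act on such tumors, and 7 tumors each came from the Control, Oxy186 and Oxy210 groups. Treated mice received 50 mg/kg of either compound every day by oral gavage, and the control group received the vehicle alone, a mixture of corn oil (85%), ethanol (7%), PEG400 (5%) and DMSO (3%). Athymic mice lack T cells but keep their other host cells, and only reads assigned to human genes were counted. The labels do not tie samples to mice, so p-values measure the spread between these samples.

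Keratins are the intermediate filament proteins of epithelial cells. A type I and a type II keratin pair in equal amounts to form the filament, and an unpaired partner is usually degraded, so the balance of both types matters to the cell. In simple epithelia such as those of lung, gut and gland the main pair is KRT8 (type II) with KRT18 (type I), joined by KRT7 (type II) and KRT19 (type I) in ducts, airways and many carcinomas. KRT80 is a type II keratin of several epithelia, and KRT81 is a type II keratin of the hair shaft that some carcinomas also express, so these members are not classical simple epithelial keratins.

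Total counts ran from 13787493 to 17865119 per library. Libraries differed in how the measured level depended on the GC content of a gene: the slope of log2 CPM, the log2 of counts scaled to a common library total, against exon GC, given per 10 percentage points of GC, was -0.51 to -0.18 in Oxy186-treated samples r1-r4, 0.08 to 0.49 in r5-r7, -0.15 to 0.40 in the control group and -0.33 to 0.26 in the Oxy210 group. The study itself set r1-r4 apart from r5-r7 on a principal component plot of these counts. The summed level of 8 epithelial markers was 7369 to 15406 CPM, and 0 of the 8 had a median count under 10. They include KRT7, KRT8, KRT18 and KRT19, so this sum is not separate from the levels of the members. Markers of lung alveolar cells were nearly absent: 4 of 5 had a median count under 10, and NKX2-1 had 0 to 2 reads per library. All 3 leukocyte markers, 2 of 3 endothelial markers and 3 of 6 fibroblast markers also had a median count under 10. The summed level of the 6 fibroblast markers was still 78.4 to 234 CPM. Of 6 squamous or basal cell markers, 1 had a median count under 10, and their sum was 109 to 230 CPM.

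KRT7, KRT8, KRT18, KRT80 and KRT81 lie in the type II keratin cluster of chromosome 12 or at its edge, where the type I gene KRT18 stands next to its partner KRT8, and KRT19 lies alone on chromosome 17. On GRCh38, KRT80 spans chr12:52168996-52192014 on the minus strand, KRT7 chr12:52232520-52252186 on the plus strand and KRT81 chr12:52285913-52291534 on the minus strand. KRT8 spans chr12:52897187-52949954 on the minus strand, KRT18 chr12:52948871-52952906 on the plus strand and KRT19 chr17:41523617-41528308 on the minus strand. The annotated KRT8 and KRT18 genes overlap head to head by 525 exon bases, which is 7.63% of the exon bases of KRT8 and 17.1% of those of KRT18. KRT7 shares 282 exon bases with the antisense gene KRT7-AS, whose counts were 1.74% to 5.83% of those of KRT7. The strand setting of the counting was not given in the sources used here, so reads in these shared bases cannot be assigned to a strand.

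The 6 members together took 0.771% to 1.61% of all counts of a library. Levels between genes were compared as CPM per kilobase of the MANE transcript, averaged over the 21 tumors. KRT8 (3095 ± 877, SD) and KRT18 (2396 ± 594) were the highest of all keratins, followed by KRT7 (788 ± 199), KRT19 (402 ± 159), KRT81 (341 ± 132) and KRT80 (11.0 ± 2.94). Across tumors, the range of KRT18 lay above that of KRT7 and the range of KRT81 lay above that of KRT80. KRT7 stood above KRT19 within every tumor, although their ranges overlapped. On the same scale the log2 ratio of KRT8 over KRT18 was 0.33 to 0.81 in 17 tumors and -0.29 to -0.16 in Oxy186 r1-r4, and the ranges of both genes overlapped. KRT19 and KRT81 did not differ beyond their spread over tumors. The order of some neighbors depended on the length used. Per kilobase of all annotated exon bases, KRT18 (1103 ± 274) stood above KRT8 (802 ± 227), whose annotated exons cover 6881 bases while its MANE transcript has 1784. On that scale KRT81 (341 ± 132) and KRT7 (320) did not differ beyond their spread, KRT8 lay below KRT18 in all 21 tumors, and KRT7 lay below KRT19 in 5 tumors. KRT17, a keratin of basal and wounded epithelium that is no member, was the third highest keratin at 946 CPM per kilobase of the MANE transcript.

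**Figure D1:**
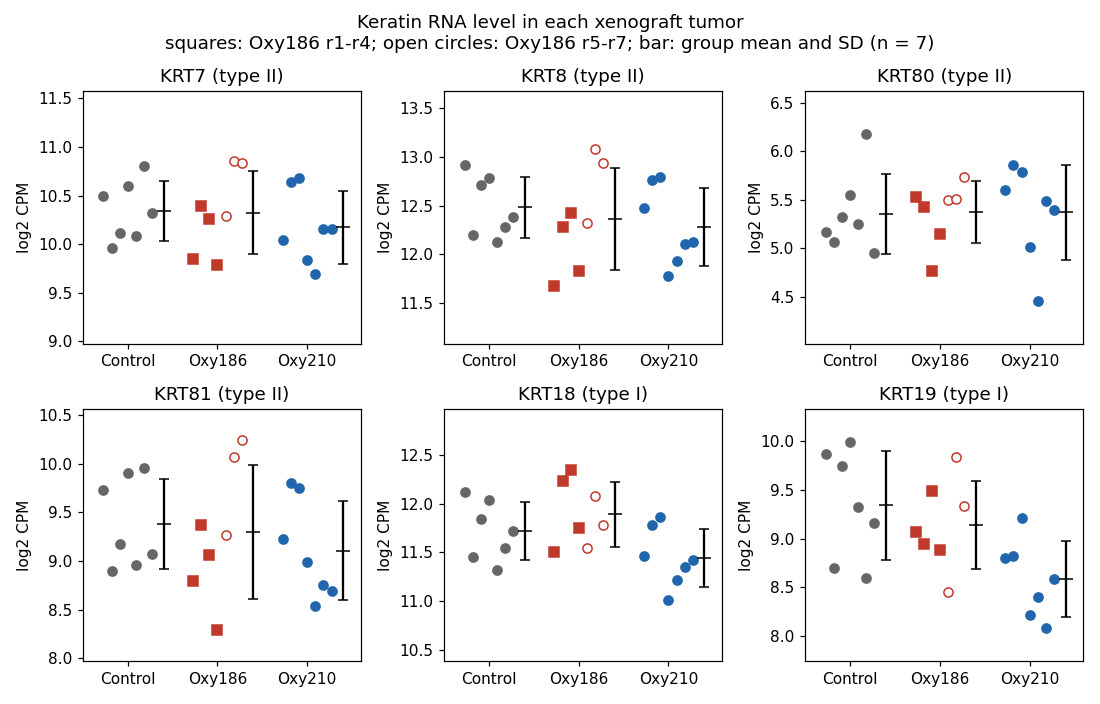
Level of each keratin as log2 CPM (vertical axis, same span of 2.6 in each panel) in the 7 Control, 7 Oxy186 and 7 Oxy210 tumors, with 1 point per tumor and a bar for the mean and SD of each group. The groups overlap for all 6 genes, and the Oxy210 tumors lie lowest for KRT19, with 4 of 7 below the lowest control tumor. How many other genes do so was not counted.

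No member passed the test in any comparison. A call needed more than a 2-fold change with an adjusted p (Benjamini-Hochberg) of at most 0.05 in edgeR's quasi-likelihood test, over 16291 genes for Oxy186 against control, 16396 for Oxy210 against control and 16361 for Oxy186 against Oxy210. In these 3 comparisons 0% of all genes were called, with or without the fold threshold, so the 0 of 6 members called stood against a background of 0%. At an unadjusted p under 0.05 there were 618, 2270 and 664 genes, of which 0, 1 and 2 were members. DESeq2 called 0, 22 and 2 genes at the same thresholds, and limma voom called 0 in each, again with no member among the called genes.

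KRT7 is the type II keratin of glandular and airway epithelium. In the control group its log2 CPM had a lowest, median and highest value of 9.96, 10.32 and 10.81, against 9.79, 10.29 and 10.86 in the Oxy186 group and 9.69, 10.15 and 10.68 in the Oxy210 group. The 3 groups covered nearly the same range, and 2 Oxy186 tumors lay above and 2 below all control tumors. The log2 fold change was -0.01 for Oxy186 (SE 0.19, edgeR adjusted p = 0.993) and -0.14 for Oxy210 (SE 0.16, edgeR adjusted p = 0.681).

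KRT8 is the main type II keratin of simple epithelia. Its log2 CPM ran from 12.12 through a median of 12.38 to 12.91 in the control group, from 11.67 through 12.32 to 13.09 in the Oxy186 group and from 11.78 through 12.13 to 12.79 in the Oxy210 group. The Oxy186 tumors spread to both sides of the control tumors, since r1 and r4 were below all of them while r6 and r7 were above all of them. The SD was accordingly 0.52 in the Oxy186 group and 0.32 in the control group (n = 7 each). The log2 fold change was -0.09 for Oxy186 (SE 0.21, edgeR adjusted p = 0.938) and -0.17 for Oxy210 (SE 0.17, edgeR adjusted p = 0.639).

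KRT80, the least abundant member, had a log2 CPM of 4.95, 5.25 and 6.18 (lowest, median, highest) in the control group, 4.77, 5.50 and 5.73 in the Oxy186 group and 4.46, 5.49 and 5.85 in the Oxy210 group. Control r6 was the highest of all 21 tumors. Its log2 fold change was -0.02 for Oxy186 (SE 0.19) and 0.04 for Oxy210 (SE 0.20), and the groups covered much the same range.

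KRT81, the hair-type member, had 8.89, 9.17 and 9.96 log2 CPM in the control group, 8.29, 9.27 and 10.24 in the Oxy186 group and 8.54, 8.99 and 9.80 in the Oxy210 group. It showed the widest Oxy186 group of all members (SD 0.69, n = 7). Its r1 and r4 lay below and its r6 and r7 above all control tumors, the same tumors as for KRT7 and KRT8. The log2 fold change was -0.02 for Oxy186 (SE 0.27) and -0.25 for Oxy210 (SE 0.22, edgeR adjusted p = 0.585). Of the 50-base windows of its MANE transcript, 44.6% also occur in another annotated gene, mainly in the hair keratin KRT86 (38.4%), and of the 100-base windows 30.3% do. A read that lies wholly within such a window may not map uniquely, and would then not be counted. Windows were compared between transcripts alone, and the read length was not given in the sources used here. At 50 bases the share was 39.2% for KRT8 and 35.3% for KRT18, with pseudogenes sharing the most, and at most 1.79% for KRT7, KRT19 and KRT80. At 100 bases it was 7.12% for KRT8 and 0% for the other 4 members. Counts assigned to the pseudogenes themselves were small, at 0.219% to 0.474% of KRT8 and 0.0382% to 0.128% of KRT18.

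KRT18 is the type I partner of KRT8. Its log2 CPM was 11.32, 11.72 and 12.12 (lowest, median, highest) in the control group, 11.50, 11.79 and 12.35 in the Oxy186 group and 11.00, 11.42 and 11.86 in the Oxy210 group. No Oxy186 tumor lay below the control tumors and r2 and r3 lay above them, while 2 Oxy210 tumors lay below. Its log2 fold change was 0.17 for Oxy186 (SE 0.16, edgeR adjusted p = 0.865) and -0.26 for Oxy210 (SE 0.14, edgeR adjusted p = 0.415). With offsets for the GC trend of each library it was 0.40 for Oxy186 (SE 0.19, edgeR adjusted p = 0.846) and -0.15 for Oxy210 (SE 0.12, edgeR adjusted p = 0.584).

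KRT19, the smallest keratin, is a type I member typical of ductal and airway epithelium. The Oxy210 tumors had 8.08, 8.59 and 9.22 log2 CPM (lowest, median, highest), against 8.59, 9.32 and 9.99 in the control group and 8.45, 9.07 and 9.84 in the Oxy186 group. In all, 4 of 7 Oxy210 tumors lay below the lowest control tumor and none above the highest. This gave a log2 fold change for Oxy210 of -0.78 (SE 0.21, 95% interval -1.22 to -0.33), the largest of any member in the 3 comparisons of whole groups. Its unadjusted p in edgeR was 0.00166 and its adjusted p 0.246, and over the alternatives the adjusted p ran from 0.0511 with DESeq2 to 0.575 with all 21 libraries in the fit. In this comparison 2270 of 16396 genes had an unadjusted p under 0.05 in edgeR, as did 1 of the 6 members. How many of all genes had as many tumors outside the control range was not counted, here or for any other member. For Oxy186 the KRT19 log2 fold change was -0.24 (SE 0.23, edgeR adjusted p = 0.864). The summed level of the 8 epithelial markers was 7369 to 13026 CPM in the Oxy210 group and 9267 to 13593 in the control group. This sum includes KRT19 itself with KRT7, KRT8 and KRT18, so it is not a measure separate from them. The sum of the 6 fibroblast markers was 78.4 to 157 CPM in the Oxy210 group and 115 to 234 CPM in the control group. The human cells implanted were of the A549-Luc2 line alone, and only reads assigned to human genes are in these sums. Whether some reads of host cells were assigned to human genes was not tested. The part of these sums in the KRT19 difference was not tested. In bulk tumors, fewer tumor cells that express a gene and less of its RNA per cell cannot be told apart.

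Both compounds were given at the same dose, and all 6 members were compared between them. KRT18 and KRT19, the type I members, had the largest differences, with Oxy186 above Oxy210. The log2 difference was 0.45 for KRT18 (SE 0.17, 95% interval 0.10 to 0.80) and 0.56 for KRT19 (SE 0.20, 95% interval 0.13 to 0.99), and for each gene 3 of 7 Oxy186 tumors lay above all Oxy210 tumors. The unadjusted p values in edgeR were 0.0155 and 0.0131, and the adjusted p was 1.00 for every member. The type II members gave 0.16 for KRT7 (95% interval -0.25 to 0.57), 0.10 for KRT8 (-0.37 to 0.58), -0.04 for KRT80 (-0.44 to 0.36) and 0.25 for KRT81 (-0.34 to 0.83). These intervals include 0 and also leave room for differences of up to 0.83 on the log2 scale. With GC offsets KRT81 was at 0.40 (95% interval 0.06 to 0.74, edgeR adjusted p = 0.561) and KRT19 at 0.77 (95% interval 0.34 to 1.20, edgeR adjusted p = 0.406).

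**Figure D2:**
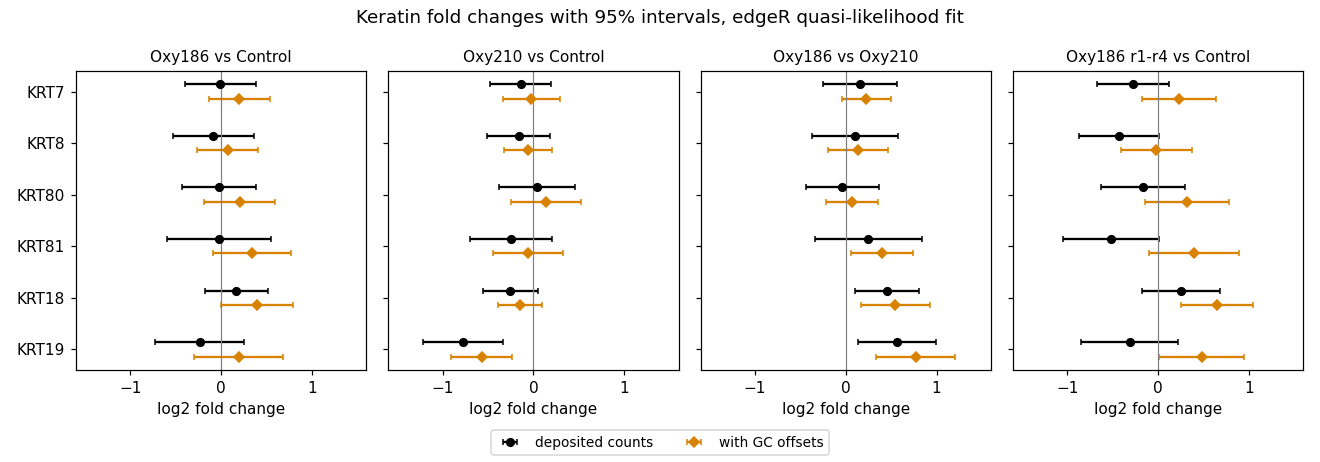
Log2 fold change (horizontal axis) of each keratin with its 95% interval in 4 comparisons, from the deposited counts (black circles) and with GC offsets that remove each library's dependence on gene GC content (orange diamonds). KRT19 lies at -0.78 for Oxy210 against control, and in r1-r4 against control the GC offsets move KRT81 from -0.52 to 0.39.

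The study compared Oxy186-treated samples r1-r4 with the 7 control tumors. Because these 4 were picked from the same counts, the p-values of this comparison are not independent of that choice. In this comparison 1406 of 16852 genes were called, or 8.34%, of which 97.4% were lower, and 3323 genes, or 19.7%, passed the adjusted p alone; 0 of the 6 members did so under either rule. The log2 fold change was negative for 5 members and positive for KRT18, with a median of -0.30 over the 6 members beside 0.01 over all genes. KRT8 measured 11.67, 12.28, 12.42 and 11.83 log2 CPM in r1 to r4, within or below the control range of 12.12 to 12.91 (log2 fold change -0.44, SE 0.21, edgeR adjusted p = 0.148). KRT81 measured 8.79, 9.37, 9.06 and 8.29, with 2 tumors below the control range of 8.89 to 9.96 (-0.52, SE 0.25, edgeR adjusted p = 0.147). KRT18 measured 11.50, 12.23, 12.35 and 11.75, with 2 tumors above the control range of 11.32 to 12.12 (0.25, SE 0.20, edgeR adjusted p = 0.402). KRT7 (-0.28, SE 0.19), KRT19 (-0.32, SE 0.25) and KRT80 (-0.17, SE 0.22) had intervals that include 0. Of the 8 epithelial markers, 2 passed the adjusted p, both lower and neither a member, beside the 19.7% of all genes. With offsets for the GC trend of each library 1 of the 8 passed, also lower, beside 4.05% of all genes.

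Within Oxy186-treated samples r1-r4, KRT8 and KRT18 stood in another proportion than elsewhere. The ratio of KRT8 to KRT18 counts was 1.13, 1.03, 1.05 and 1.05 in r1 to r4, and 1.70, 2.01 and 2.22 in r5 to r7. In the control tumors r1 to r7 it was 1.73, 1.67, 1.83, 1.68, 1.75, 1.67 and 1.59, and in the Oxy210 tumors 2.02, 1.97, 1.91, 1.71, 1.65, 1.70 and 1.63. The 4 tumors thus lay between 1.03 and 1.13, and the other 17 between 1.59 and 2.22, with no tumor between. In r1-r4 against control 19.7% of all genes passed the adjusted p. How many other gene pairs part the same tumors was not counted. The control group varied little (1.70 ± 0.0748, SD, n = 7), while the whole Oxy186 group, being made of both kinds of tumor, gave 1.46 ± 0.510. The exon GC content of KRT8 (55.9%) and KRT18 (55.7%) is nearly equal, so removing a trend on exon GC could change their ratio little. In the MANE transcripts GC is 59.3% for KRT8 and 58.2% for KRT18. After removal of each library's GC trend the log2 ratio was 0.10 ± 0.06 in r1-r4 and 0.97 ± 0.19 in r5-r7. It was 0.76 ± 0.06 in the control group and 0.84 ± 0.13 in the Oxy210 group. The ratio was not tested, since r1-r4 were chosen on the same counts and the ratio was singled out after its values were seen. The part in the ratio of base composition, of the exon bases shared by both genes and of the windows shared with pseudogenes was not tested.

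**Figure D3:**
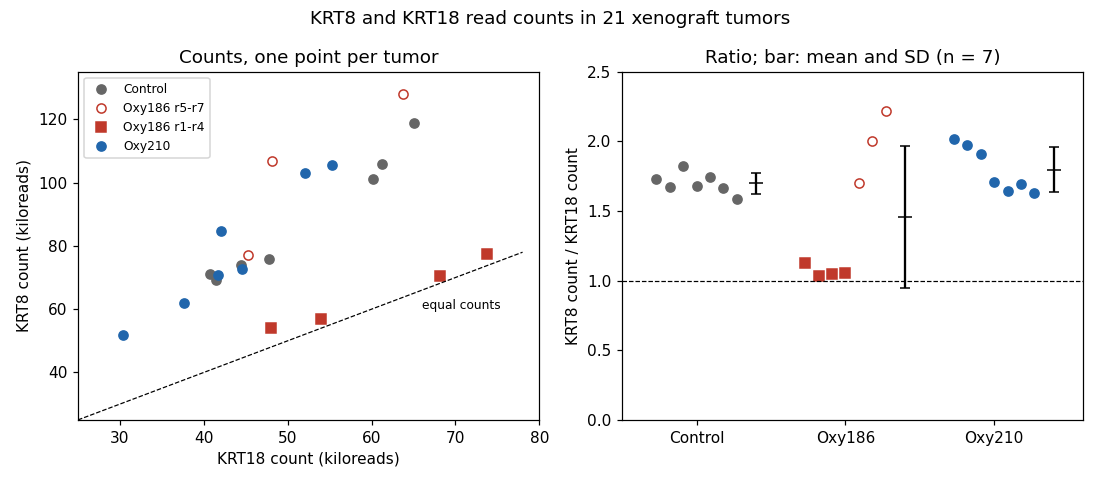
KRT8 read count against KRT18 read count in kiloreads (left, dashed line at equal counts) and their ratio by group (right, bar for mean and SD, n = 7), with 1 point per tumor. Oxy186 r1-r4 lie at ratios of 1.03 to 1.13 near the line, and the other 17 tumors lie at 1.59 to 2.22. How many other gene pairs part these tumors was not counted.

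The summed type II members over the summed type I members, per kilobase of exon on the log2 scale, followed the same split. KRT8 held 42.4% to 62.5% of the type II sum and KRT18 75.3% to 88.1% of the type I sum, so this value is not separate from the ratio of that pair. The value was -0.31, -0.33, -0.54 and -0.53 in r1 to r4 and 0.30, 0.35 and 0.65 in r5 to r7. It was 0.14 ± 0.20 (SD, n = 7) in the control group and 0.29 ± 0.14 in the Oxy210 group, where no tumor was below 0.08. All 4 of r1-r4 lay below every other tumor, since the lowest control value was -0.01. Per kilobase of the MANE transcript the values of r1 to r4 were 0.12, 0.08, -0.04 and -0.02, and the other 17 tumors lay at 0.54 to 1.06. The sign in r1-r4 thus depended on the length used, while the split from the other tumors was seen on both scales. The other pair, KRT7 over KRT19, did not split this way: its count ratio was 1.71 to 2.71 in r1-r4, 2.03 to 3.58 in r5-r7, 1.29 to 4.63 in the control group and 2.37 to 4.21 in the Oxy210 group. The ranges of all groups overlapped for this ratio.

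The GC slope of the libraries moved with most members. Over the 21 tumors, the log2 CPM of KRT8 followed the GC slope with r = 0.77, that of KRT81 with 0.71, KRT7 with 0.61, KRT80 and KRT19 with 0.47 each, and KRT18 with 0.18. After the GC trend was removed, r was 0.32 for KRT8, -0.20 for KRT81, -0.25 for KRT7, -0.30 for KRT80, -0.24 for KRT19 and -0.45 for KRT18. The removal thus left a relation to the slope, of opposite sign for all members but KRT8. These are descriptions, as both measures come from the same library. With GC offsets in the fit of r1-r4 against control, 683 genes or 4.05% of all genes passed the adjusted p, and again none of the 6 members. KRT18 was then the member nearest to the threshold (log2 fold change 0.65, SE 0.18, edgeR adjusted p = 0.0645), and KRT8 was at -0.02 (SE 0.18). KRT7 (0.23), KRT19 (0.48), KRT80 (0.32) and KRT81 (0.39) changed sign, and the median over the members moved from -0.30 to 0.35 while that over all genes stayed at 0.01. The log2 fold change of KRT18 was 0.69 above that of KRT8 without and 0.67 above it with GC offsets. As the offsets rest on exon GC, which is nearly equal in both genes, they could change this difference little. In Oxy210 against control, KRT19 was at -0.57 with GC offsets (SE 0.16, edgeR adjusted p = 0.179).

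**Figure D4:**
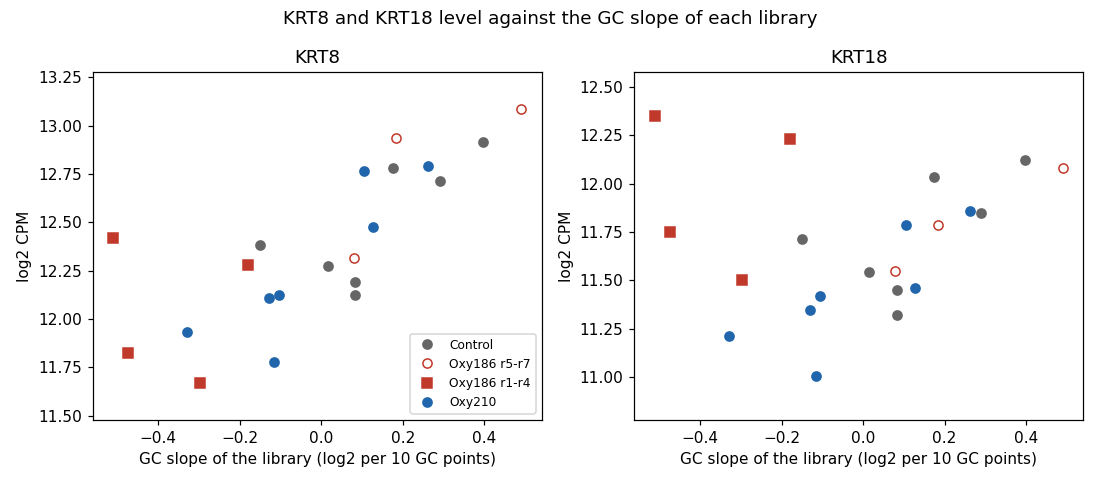
Level of KRT8 (left) and KRT18 (right) as log2 CPM against the GC slope of the library, in log2 units per 10 percentage points of exon GC, with 1 point per tumor. KRT8 rises along the slope (r = 0.77 over 21 tumors), and for KRT18 (r = 0.18) Oxy186 r2 and r3 lie at the upper left, at 12.23 and 12.35, with r1 and r4 below them at 11.50 and 11.75.

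Members differed in how closely they varied together across the 21 tumors. KRT7 and KRT81 had the highest Pearson r of log2 CPM (0.93, and 0.89 after the GC trend was removed). KRT18 and KRT19, the type I members, had 0.74 and 0.76. KRT7 with KRT8 and KRT8 with KRT81 had 0.82 and 0.83, which dropped to 0.54 and 0.53 without the GC trend. KRT8 and KRT18 had 0.65 and 0.52, over tumors that fall into the groups of ratio described above. KRT80 had 0.05 with KRT19 and 0.11 with KRT18. All values share libraries, depth and base composition and are given as descriptions.

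**Figure D5:**
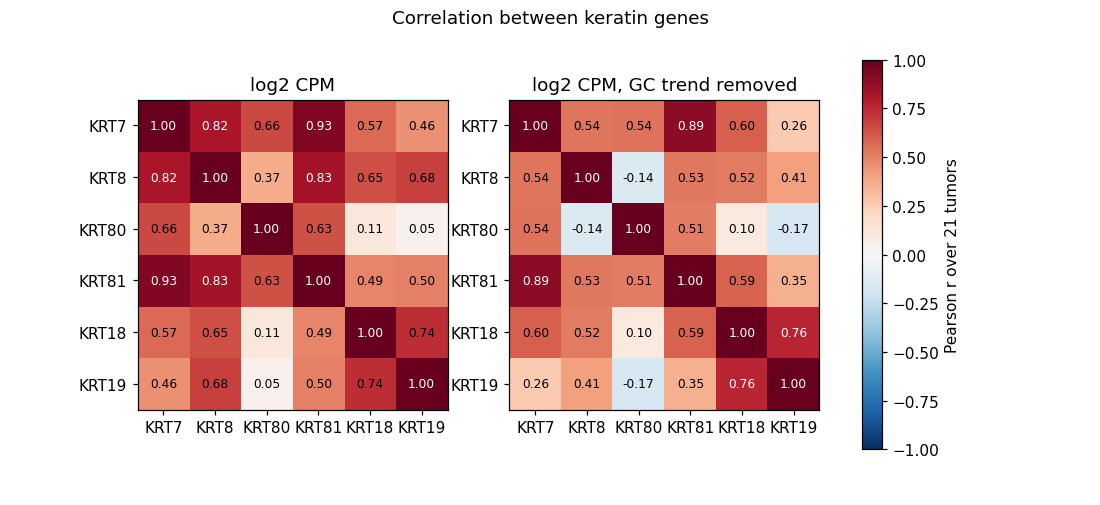
Pearson r between members over 21 tumors for log2 CPM (left) and after removal of each library's GC trend (right), with the color scale from -1 to 1. KRT7 with KRT81 stays at 0.93 and 0.89, and KRT8 with KRT81 goes from 0.83 to 0.53.

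Among 13607 genes whose mean log2 CPM was 1 or more, those with a pattern most like KRT7 over the 21 tumors were KRT81, POP7 and WRAP53 (r = 0.92 to 0.93), and without the GC trend KIF18A, SLBP and CBX3 (0.90 to 0.91). For KRT8 they were MRPL28, CFL1 and TSR3 (0.94 each), and then CYCS, PEBP1 and ATP5PB (0.88 to 0.91). KRT18 had POLR2C, IDH3B and MRFAP1 (0.94 each), and IDH3B and MRFAP1 stayed among its first 3 without the GC trend, joined by SUB1. KRT19 was nearest to STARD10 on both scales (0.93 and 0.92), followed by GPX3 and RER1, and then by CYB561 and AGPAT2. KRT80 was nearest to SMTN, FGFR1 and FMNL3 (0.86 to 0.89), and then to CAP2, DNAJB6 and NPTX1. KRT81 had TIMM50, DDX39A and TK1 (0.94 to 0.95), and then CTPS1, DTYMK and CENPN (0.90 each).

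Besides the members, 15 keratin genes passed the filter over the 21 tumors. The 3 highest by mean log2 CPM were KRT17 (10.40), KRT15 (6.33) and KRT10 (5.71). For Oxy210 against control, 14 of these 15 had a negative log2 fold change (median -0.43), as did 5 of the 6 members (median -0.21), and none passed the adjusted p. The median over all genes was 0.01. With GC offsets 13 of the 15 were negative (median -0.28), as were 5 of the 6 members (median -0.06). KRT14, the basal layer type I keratin, was at -1.40 (edgeR adjusted p = 0.207) and KRT10, of differentiated epidermis, at -0.60 (0.246). For Oxy186 against control without offsets, 6 of the 15 were above and 9 below 0. In r1-r4 against control, KRT86 fell by 1.09 on the log2 scale (SE 0.23, edgeR adjusted p = 0.00502), the only keratin called there. It is named because it shares windows with KRT81, it had 24 to 107 reads per library, and with GC offsets it was at -0.22 (edgeR adjusted p = 0.679).

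Genes that work with keratins were read from the r1-r4 comparison by lists of known role, beside the 19.7% of all genes that passed the adjusted p there and the 4.05% that did so with GC offsets. Of the stratified epithelial keratins, 11 of 16 were tested and 0 passed the adjusted p. The smallest p values belonged to KRT16 (-0.81), KRT14 (-1.01) and KRT13 (-1.23), with edgeR adjusted p of 0.117 to 0.211, and the highest levels to KRT17 (-0.26), KRT15 (-0.72) and KRT10 (-0.01). KRT14 and KRT13 had few reads, at 2 to 105 and 2 to 39 per library. Of the other intermediate filaments, 8 of 13 were tested and 2 passed, a share near that of all genes: the nuclear lamins LMNA (-0.52, edgeR adjusted p = 0.0395) and LMNB2 (-0.67, 0.0336) fell, while the neurofilament gene NEFL was at -0.79 (0.0527) and vimentin (VIM) at 0.19 (0.300). With GC offsets LMNA was at 0.12 and LMNB2 at 0.24, and no gene of this list passed.

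Of the desmosome and keratin linkers, 14 of 15 were tested, of which 2 fell and 1 rose, also near the share of all genes. The plakophilin PKP3 (-1.32, edgeR adjusted p = 0.00116) and plectin (PLEC, -1.41, 0.00278), which ties filaments to adhesion sites, fell, and PKP4 rose (0.54, 0.0144). With GC offsets PKP3 was at 0.15 and PLEC at 0.03, while PKP4 was at 0.53 (edgeR adjusted p = 0.0348) and EVPL, named after its values were seen, passed at 0.87 (0.00329) from -0.26 without offsets. The other highly expressed linkers were DST (0.15) and JUP (-0.59, edgeR adjusted p = 0.0590). Of the epithelial transcription factors, 11 of 14 were tested and ELF3 fell (-0.64, edgeR adjusted p = 0.0100, and -0.35 with GC offsets, 0.137). KLF4 (-0.72), OVOL2 (-0.90), KLF5 (0.10) and EHF (0.01) did not pass.

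All 13 keratin chaperones and modifiers were tested and 3 passed, near the share of all genes. Values of 2 of these are given. TRADD, a death receptor adaptor that binds KRT18, fell by 1.44 on the log2 scale (edgeR adjusted p = 0.000863). HSPA1A, an inducible heat shock chaperone, rose by 0.86 (edgeR adjusted p = 0.0231) and by 1.56 with GC offsets (0.00252). With GC offsets 3 of 13 passed, all higher: HSPA1A and, named after their values were seen, STUB1 (1.13, edgeR adjusted p = 0.00221) and YWHAH (0.38, 0.0412), while TRADD was at -0.38. The highest levels in this list were those of YWHAZ (0.31), YWHAE (0.01) and HSPB1 (-0.54), none of which passed.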

How the data were processed

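The authors trimmed reads with Trimmomatic 0.39, aligned them with STAR 2.7.6a to a combined human (GRCh38.p13) and mouse (GRCm39) genome, kept human alignments and deposited raw counts of uniquely mapped reads per human gene from featureCounts (Subread 2.0.1). The authors also deposited log2 CPM of Control r1-r7 and Oxy186 r1-r4. These were reproduced from the raw counts to within 4.97e-14 and were otherwise not used. Every column had a sample in the labels.

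Raw counts were tested with edgeR 4.0.16 (R 4.3.3): filterByExpr, TMM normalization with library sizes kept, glmQLFit and glmQLFTest, with only the groups compared in each fit and Benjamini-Hochberg adjustment over all genes tested. Log2 CPM for levels used a prior count of 2 and TMM over 21 libraries. GC offsets came from a natural spline (4 degrees of freedom) of exon GC per library, fitted on genes whose mean log2 CPM was 1 or more, and 99.8% of tested genes had a GC value. For edgeR the SE was derived as the absolute log2 fold change over the square root of the test's F statistic. Intervals are 95% intervals built from this SE and a t quantile at the degrees of freedom of the fit. Alternatives were limma 3.58.1 voom, DESeq2 1.42.0, other scalings, no filter, 1 fit of all libraries, a replicate block and, for r1-r4, leaving out each sample. Transcript lengths and positions came from GENCODE on GRCh38. A gene of the chaperone and modifier list and some sequences are not reported here. The scripts were tested on simulated data. The members and gene lists were chosen with earlier results of these data known. Named genes were the members, the 3 highest other keratins, for each list the 3 smallest p values in r1-r4 and the 3 highest levels, and the 3 genes most like each member; a gene outside this rule was named after its values were seen. Replicates of a group differed beyond sampling noise, with a lowest chi-square per degree of freedom of 10.9.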

Additional observations from a re-analysis of the deposited data

Results flagged for a closer look

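Of 27 groups of values examined for a tumor far from its group, 1 stood out, where chance gives about 1 in 20, or 1.35. The log2 ratio of summed type II over summed type I members per kilobase of exon was 0.58 in Control r6, while the other control tumors lay between -0.01 and 0.12. That tumor also had the highest KRT80 level of all 21 (6.18 log2 CPM) and the highest control values of KRT7 (10.81) and KRT81 (9.96), beside the lowest control value of KRT19 (8.59).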

How the results depend on the processing

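No member was called under any alternative, while 212 fold changes of members kept their direction and 28 did not. Called genes moved in Oxy210 against control to 22 with DESeq2 (3 higher, 19 lower), 7 with no filter and 1 with the replicate block, and in Oxy186 against Oxy210 to 2 with DESeq2 and 1 each with no filter, all 21 libraries in 1 fit, GC offsets, and the replicate block with GC offsets. In r1-r4 against control, 1406 called genes became 202 with GC offsets (71.3% lower), 62 with the replicate block and GC offsets (82.3% lower) and 3323 by adjusted p alone, and 997 to 1604 when 1 of r1-r4 was left out; the causes were not tested. Changed signs of members follow as log2 fold changes, none past the adjusted p, though the 95% interval was 0.01 to 0.95 for KRT19 in r1-r4 with GC offsets and 0.17 to 0.97 for KRT80 with the block added. In Oxy186 against control with GC offsets, and with the replicate block and GC offsets, they were 0.20 and 0.22 for KRT7, 0.0740 and 0.0561 for KRT8, 0.20 and 0.15 for KRT19, 0.21 and 0.26 for KRT80, and 0.34 and 0.37 for KRT81. In the same comparison KRT7 was 0.0128 with DESeq2 and with DESeq2's size factors in edgeR, 0.0181 with library size alone and 0.00768 in 1 fit of all libraries. KRT80 was 2.75e-06 with DESeq2, 0.0150 with library size alone and 0.00067 with the replicate block, and KRT81 was 0.0047 with library size alone. In Oxy186 against Oxy210 KRT80 was 0.0656 with GC offsets and 0.0704 with the block added. In r1-r4 against control the values with GC offsets, and with the block added, were 0.23 and 0.41 for KRT7, 0.48 and 0.39 for KRT19, 0.32 and 0.57 for KRT80, and 0.39 and 0.56 for KRT81. Replicate numbers did not pair the samples: only 4 of 21 same-numbered pairs had a correlation of deviations over 0.1, and 1 of 21 libraries was closest to its own number. Mean levels per kilobase moved beyond their SD for KRT7, KRT8, KRT18 and KRT19 with both the longest and the MANE transcript length. Differences between groups in the type II to type I ratio kept their direction under the other length scales, including the MANE length added after seeing the data. With 4 samples in r1-r4, no value there has a check outside the samples that were picked.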
